A study of Arabidopsis thaliana with 6 samples.

Results

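The 37 genes described here make the phenylpropanoids, flavonoids and anthocyanins of the Arabidopsis leaf or control their synthesis. They were chosen by locus: the phenylalanine ammonia-lyase, cinnamate hydroxylase and 4-coumarate:CoA ligase genes, the flavonoid core, the flavonol and anthocyanin enzymes with their glycosyl- and acyltransferases, the transport protein TT19, and the MYB, bHLH and WD40 regulators. Of the 28309 loci with a probe of their own on the array, 20278 could be tested, and 32 of the 37 members were among them. RNA was measured on 6 single-colour Agilent arrays, 2 for each of 3 genotypes: plants carrying the ore15-1D allele, plants carrying the ore15-2 allele, and Col, the wild type. ORE15 is a gene of the PLATZ family, zinc-binding proteins found in plants; ore15-1D is known as its dominant allele and ore15-2 as a loss-of-function one. Every sample was the third or the fourth rosette leaf, taken 4 days after it emerged. Plants had spent 13 days on soil, with 16 h of light and 8 h of dark, and were harvested 5 h after light-on. The design text calls the paired arrays independent biological samples, and how many plants went into each is unstated in the labels.

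Phenylpropanoid synthesis starts from phenylalanine, which PAL deaminates and C4H and 4CL turn into p-coumaroyl-CoA, the shared precursor of lignin, sinapate esters and flavonoids. Chalcone synthase, chalcone isomerase and flavanone 3-hydroxylase build the flavonoid skeleton. From there flavonol synthase leads to the colourless flavonols, and DFR and LDOX lead to the red and purple anthocyanins, which are then glycosylated, acylated and moved into the vacuole. The early steps are known to be under flavonol MYB factors (MYB11, MYB12, MYB111), and the late steps under a complex of a MYB (PAP1 or PAP2), a bHLH (TT8, GL3 or EGL3) and the WD40 protein TTG1, which MYBL2 represses.

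Values below are log2 levels, the log2 of the background-subtracted signal minus the 75th percentile of the same array, and they are compared only within a probe. A change is a difference of 2 group means on this scale, given with its standard error (SE, n = 2 arrays per genotype). The SE is that of the limma fit, whose spread is shared by all 3 genotypes and not only the 2 compared. Adjusted p-values are from limma on all 6 arrays, two-sided, adjusted by Benjamini-Hochberg over the 20278 genes, and a gene rose or fell where this was below 0.05. ORE15 (AT1G31040) stood at 2.75 and 2.66 on the ore15-1D arrays, at -6.37 and -8.44 on the ore15-2 arrays and at -4.90 and -4.79 on the Col arrays. It rose in ore15-1D by 7.55 ± 0.67 (adjusted p 0.00544), and the ore15-2 value, -2.56 ± 0.67, did not pass (adjusted p 0.125). In ore15-2 the ORE15 probe was well above background on 1 of 2 arrays, so the size of that difference is poorly measured. Where the probe lies relative to the ore15-2 lesion is unknown here. Both ore15-1D arrays shared slide 1 with Col replicate 1, and both ore15-2 arrays shared slide 2 with Col replicate 2. Well above background were 67.8% to 73.0% of probe spots, depending on the array, and none was saturated. The signal's 75th percentile was 1246 and 1336 in ore15-1D, 808 and 747 in ore15-2 and 925 and 858 in Col.

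In ore15-1D the late anthocyanin genes DFR, TT19, UGT79B1 and 5MAT and the regulators PAP1 and TT8 fell, while UGT78D2 and SCPL10 of the same branch rose. LDOX, UGT75C1 and A3CouAT1 did not pass in ore15-1D, nor did CHS, CHI and F3H of the early flavonoid steps. Of the 32 tested members 12 fell and 4 rose, with a median change of -0.43, against -0.01 over all genes tested. Across all genes tested, 40.7% changed in this comparison, 22.1% lower and 18.6% higher. In ore15-2, DFR, LDOX, UGT79B1 and UGT78D2 of the anthocyanin branch and 4 of 5 genes of the flavonoid core rose, and TT19, UGT75C1, 5MAT, A3CouAT1 and SCPL10 did not pass. In all, 10 members rose and 1 fell there, with a median of 0.61, against 0.01 over all genes tested. The background was much lower here: 3.73% of all genes tested changed, 2.16% higher and 1.57% lower. Col was used in both comparisons, so that an array of Col that is off moves both. Between the mutants, 22 members were lower and 4 higher in ore15-1D than in ore15-2, with a median of -0.74, against -0.02 over all genes tested. In that comparison 55.7% of all genes tested differed, 29.5% lower and 26.2% higher in ore15-1D. Asking besides for a log2 difference of at least 1 left 8 of 32 members in ore15-1D against Col (12.1% of all genes tested), 6 in ore15-2 against Col (1.78%) and 15 between the mutants (21.3%). The members' split in ore15-1D was 6 higher and 11 lower with the authors' deposited table or with normexp and quantile normalization. Over all genes 45.7% of the calls were higher here, against 55.9% to 58.0% with the quantile-type scalings. The members' median in ore15-1D was -0.19 with quantile normalization, -0.07 with normexp and quantile normalization and -0.13 with the authors' table. The median of all genes was then 0.04 to 0.06. With normexp and the 75th percentile these medians were -0.51 and -0.25.

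Of the 3 sets of calls, those of ore15-2 against Col were lost under the most settings. None of the 32 members passed in ore15-2 against Col with slide as a fixed block, with replicate number as a block, within slide 2 alone, without the filter on dim probes, with normexp background correction and the 75th percentile, or without ore15-2 replicate 2, Col replicate 1 or either ore15-1D array. With slide as a random block 10 passed. Their changes stayed of similar size within a slide, so that DFR was 2.88 higher in ore15-2 than in Col on slide 2 (adjusted p 0.258), against 2.96 over both slides. Each slide holds 1 Col array, whose spread is there assumed to be that of the mutant. Since no slide held both mutants, the comparison of ore15-1D with ore15-2 can be separated from slide only through Col, and with slide as a fixed block none of its 26 calls passed, with DFR at -4.54 (adjusted p 0.0508). With slide as a random block 25 members passed there. In ore15-1D against Col a fixed slide block left 9 of 16 calls, and ended those of F3'H, TT8, 4CL1, 5MAT, MYB111, UGT78D2 and SCPL10, at adjusted p-values of 0.0514 to 0.0857.

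**Figure D1:**
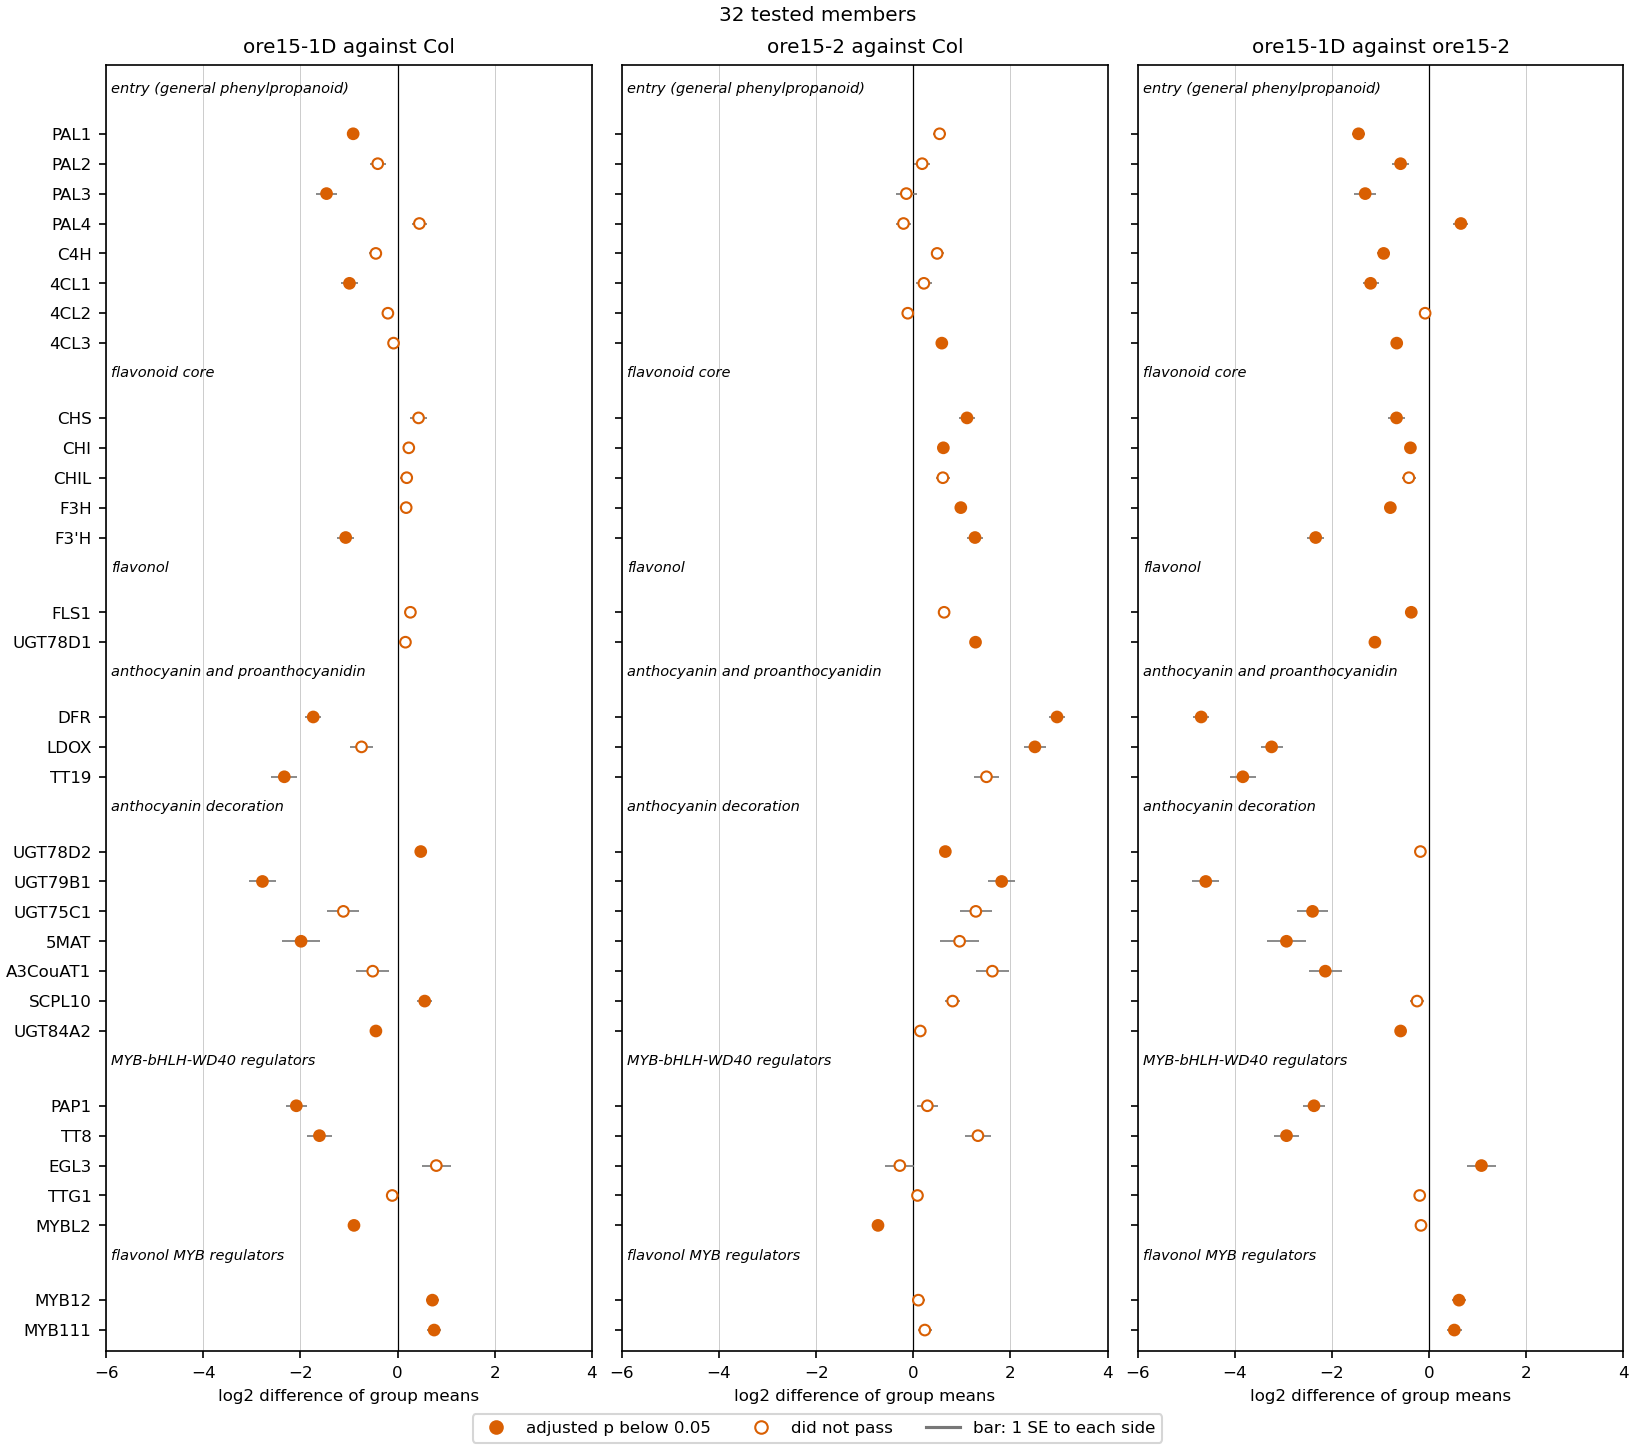
Change of each of the 32 tested members, by branch, in ore15-1D against Col, ore15-2 against Col and ore15-1D against ore15-2. The horizontal axis is the log2 difference of the group means, bars span 1 SE to each side, and filled points passed at adjusted p below 0.05. DFR, LDOX and TT19 lie at -1.74, -0.74 and -2.33 in ore15-1D against Col and at 2.96, 2.50 and 1.51 in ore15-2 against Col.

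At the entry of the pathway, 3 of 8 members fell in ore15-1D, none rose, and 1 rose in ore15-2. That was 37.5% changed in ore15-1D and 12.5% in ore15-2, against 40.7% and 3.73% of all genes tested. PAL1 (AT2G37040), the first committed enzyme, stood at 1.91 and 1.78 in ore15-1D, at 3.14 and 3.46 in ore15-2 and at 2.75 and 2.77 in Col. The 3 genotypes did not overlap, with ore15-1D lowest. PAL1 fell by 0.91 ± 0.13 in ore15-1D, 1.88-fold lower than in Col (adjusted p 0.0104), and its ore15-2 value of 0.54 ± 0.13 did not pass (adjusted p 0.107). PAL3, the isoform with the largest change of the 4 PAL genes in ore15-1D, was at -2.05 and -2.02 in ore15-1D, at -0.996 and -0.44 in ore15-2 and at -0.74 and -0.40 in Col. It fell by 1.46 ± 0.22 in ore15-1D (adjusted p 0.0116), and ore15-2 and Col overlapped.

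4CL1, which activates coumarate to its CoA ester, stood at 1.73 and 1.64 in ore15-1D, at 2.66 and 3.12 in ore15-2 and at 2.68 and 2.67 in Col. It fell by 0.99 ± 0.17 in ore15-1D (adjusted p 0.0139), while ore15-2 and Col overlapped. C4H, the cytochrome P450 between PAL and 4CL, was at 2.73 and 2.75 in ore15-1D, 3.51 and 3.84 in ore15-2 and 3.24 and 3.13 in Col. Its groups did not overlap, but neither -0.45 ± 0.13 in ore15-1D (adjusted p 0.0514) nor 0.49 ± 0.13 in ore15-2 (adjusted p 0.132) passed against Col. 4CL3, the isoform tied to flavonoids, stood at 0.08 and 0.07 in ore15-1D, at 0.75 and 0.74 in ore15-2 and at 0.24 and 0.07 in Col, and rose by 0.59 ± 0.09 in ore15-2 (adjusted p 0.0455). A second, dimmer probe of 4CL3 ran the other way, with a change of -0.89 in ore15-2, and was well above background on neither ore15-2 array. PAL4 was the entry gene with the opposite sign, at 0.02 and 0.01 in ore15-1D, -0.52 and -0.76 in ore15-2 and -0.27 and -0.61 in Col, and it was higher in ore15-1D than in ore15-2 by 0.65 ± 0.15 (adjusted p 0.0215). PAL2 and 4CL2 did not pass against Col in either mutant, with changes between -0.41 and 0.18. On PAL1, PAL2, PAL3, C4H and 4CL1 ore15-2 replicate 2 was the higher of the ore15-2 arrays.

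In the flavonoid core the mutants differed in which genes moved: 4 of 5 members rose in ore15-2, and in ore15-1D the single change was a fall of F3'H. Changed were 20% in ore15-1D and 80% in ore15-2, against 40.7% and 3.73% of all genes tested. CHS (AT5G13930), the entry enzyme of all flavonoids, had levels of 1.67 and 1.87 in ore15-1D, 2.28 and 2.61 in ore15-2 and 1.19 and 1.48 in Col. Both mutants lay above Col, with ore15-2 highest. CHS rose by 1.105 ± 0.17 in ore15-2, 2.15-fold (adjusted p 0.046), and its 0.43 ± 0.17 in ore15-1D did not pass (adjusted p 0.102). CHI, which closes the flavanone ring, was at -0.19 and -0.10 in ore15-1D, 0.27 and 0.22 in ore15-2 and -0.37 and -0.38 in Col, and rose by 0.62 ± 0.08 in ore15-2 (adjusted p 0.0317). F3H, the dioxygenase that follows, stood at 0.46 and 0.33 in ore15-1D, 1.26 and 1.13 in ore15-2 and 0.23 and 0.21 in Col. It rose by 0.98 ± 0.09 in ore15-2 (adjusted p 0.021), with 0.18 ± 0.09 in ore15-1D (adjusted p 0.179). CHIL, a non-catalytic helper of CHS, had the same sign in ore15-2 at 0.61 ± 0.14 without passing (adjusted p 0.0964).

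F3'H (AT5G07990), which adds the hydroxyl that makes quercetin and cyanidin derivatives, was set apart from the rest of the core by its fall in ore15-1D. Its levels were -4.01 and -3.53 in ore15-1D, -1.41 and -1.45 in ore15-2 and -2.70 and -2.70 in Col. It fell by 1.07 ± 0.17 in ore15-1D (adjusted p 0.0123) and rose by 1.27 ± 0.17 in ore15-2 (adjusted p 0.0336), a 5.05-fold lower level in ore15-1D than in ore15-2. A second F3'H probe well above background on all arrays gave -1.005 in ore15-1D and 1.16 in ore15-2. With slide as a fixed block its fall in ore15-1D was of the same size, -1.07, at an adjusted p of 0.0514. Its ore15-2 value was 0.098 with normexp background correction and the 75th percentile (adjusted p 0.933).

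On the flavonol side, UGT78D1 (AT1G30530), the flavonol rhamnosyltransferase, rose in ore15-2. It stood at 1.80 and 1.84 in ore15-1D, at 2.83 and 3.04 in ore15-2 and at 1.74 and 1.58 in Col, so that the ore15-2 arrays were clear of all the others. The rise was 1.28 ± 0.11, 2.43-fold (adjusted p 0.0195), and ore15-1D differed from Col by 0.16 ± 0.11 (adjusted p 0.284). FLS1, the main flavonol synthase, was at 1.24 and 1.07 in ore15-1D, 1.59 and 1.45 in ore15-2 and 0.80 and 0.97 in Col. Both mutants were above Col, but neither passed (0.27 ± 0.11, adjusted p 0.123, in ore15-1D and 0.63 ± 0.11, adjusted p 0.0622, in ore15-2). UGT78D3, a flavonol arabinosyltransferase, was not well above background on any of the 6 arrays.

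In the anthocyanin branch proper, DFR and LDOX had the largest rises of all members in ore15-2, and DFR and TT19 fell in ore15-1D. DFR (AT5G42800, probe on chromosome 5, 17164360 to 17164419, TAIR10), which reduces dihydroflavonols and commits them to anthocyanin, stood at -3.64 and -3.23 in ore15-1D, at 1.18 and 1.34 in ore15-2 and at -1.77 and -1.62 in Col. The 3 genotypes were far apart and the arrays of each close together. DFR fell by 1.74 ± 0.17 in ore15-1D, 3.33-fold lower (adjusted p 0.00591), and rose by 2.96 ± 0.17 in ore15-2, 7.77-fold higher (adjusted p 0.0182). Between the mutants it was 25.9-fold lower in ore15-1D (-4.69 ± 0.17, adjusted p 0.00183). Its other probes ran the same way, with changes of -2.15 and -1.71 in ore15-1D and of 3.41 and 2.87 in ore15-2.

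LDOX (AT4G22880, probe on chromosome 4, 12005243 to 12005302), the anthocyanidin synthase, was at -5.34 and -4.67 in ore15-1D, at -1.73 and -1.80 in ore15-2 and at -4.27 and -4.27 in Col. It rose by 2.50 ± 0.23 in ore15-2, 5.67-fold (adjusted p 0.0204), and its lower level in ore15-1D, -0.74 ± 0.23, did not pass (adjusted p 0.0562). The LDOX value in ore15-2 was 0.40 (adjusted p 0.795) with normexp background correction and the 75th percentile. TT19 (AT5G17220, probe on chromosome 5, 5659156 to 5659215), a glutathione S-transferase needed to bring anthocyanin into the vacuole, stood at -2.58 and -1.90 in ore15-1D, at 1.78 and 1.41 in ore15-2 and at 0.17 and 0.01 in Col. It fell by 2.33 ± 0.26 in ore15-1D, 5.03-fold lower (adjusted p 0.00705), and its value in ore15-2, 1.51 ± 0.26, did not pass although no arrays overlapped (adjusted p 0.0583). A second TT19 probe gave -2.53 in ore15-1D and 1.42 in ore15-2. BAN, the anthocyanidin reductase of the proanthocyanidin branch, was not well above background on any of the 6 arrays.

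**Figure D2:**
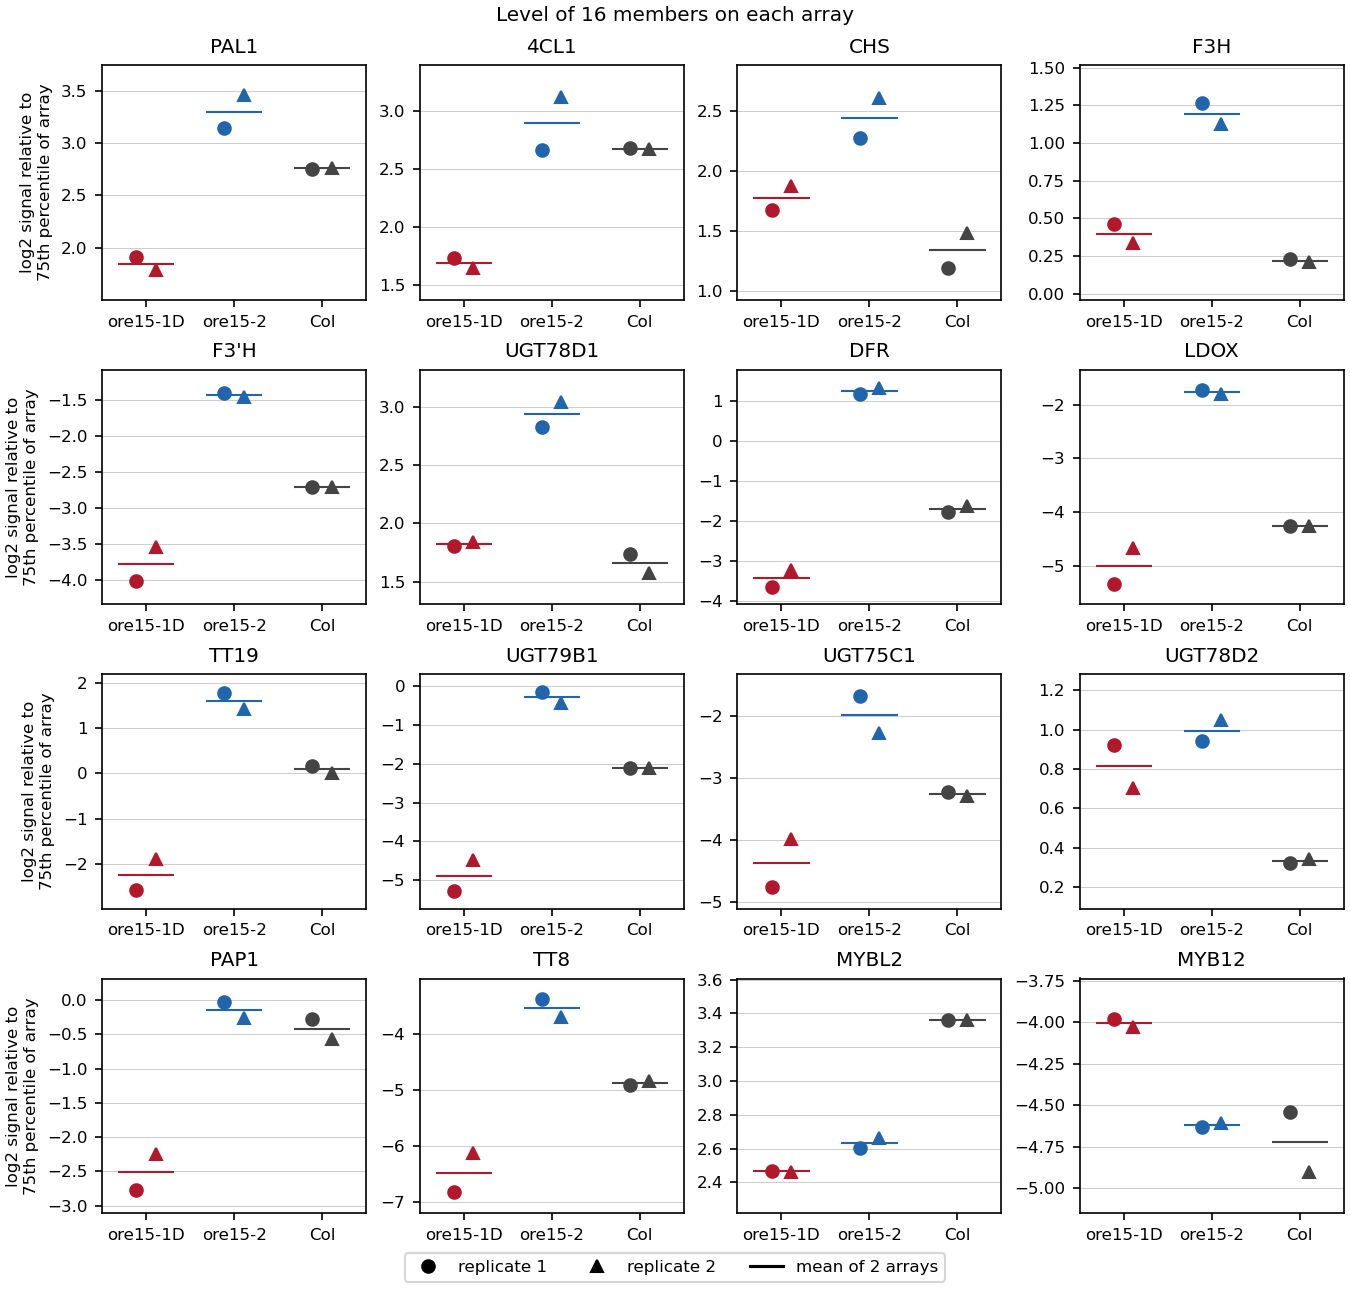
Level of 16 members on each of the 6 arrays, as the log2 signal minus the array's 75th percentile, with a scale of its own in each panel. Circles are replicate 1, triangles replicate 2, and lines the mean of 2 arrays. For DFR, TT19 and UGT79B1 the ore15-1D arrays lie below and the ore15-2 arrays above Col, whereas MYBL2 is lower than Col in both mutants.

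Among the 7 tested genes that decorate anthocyanins, 3 fell and 2 rose in ore15-1D and 2 rose in ore15-2. Changed were 71.4% in ore15-1D and 28.6% in ore15-2, against 40.7% and 3.73% of all genes tested. UGT79B1 (AT5G54060), the xylosyltransferase specific to anthocyanins, stood at -5.28 and -4.48 in ore15-1D, at -0.15 and -0.42 in ore15-2 and at -2.10 and -2.10 in Col. It had the largest fall of all members in ore15-1D, by 2.78 ± 0.28 or 6.87-fold (adjusted p 0.00632). Over the alternative settings this change lay between -3.18 and -1.03, and that of TT19 between -2.67 and -1.60. UGT79B1 rose by 1.82 ± 0.28 or 3.53-fold in ore15-2 (adjusted p 0.0459). Its ore15-2 value was 0.74 with normexp and the 75th percentile (adjusted p 0.57). UGT75C1, the anthocyanin glucosyltransferase of the other sugar position, was at -4.76 and -3.98 in ore15-1D, -1.67 and -2.27 in ore15-2 and -3.23 and -3.29 in Col. The order of the genotypes was that of UGT79B1, but neither -1.11 ± 0.33 in ore15-1D (adjusted p 0.0501) nor 1.29 ± 0.33 in ore15-2 (adjusted p 0.119) passed against Col. 5MAT, the anthocyanin malonyltransferase, stood at -5.29 and -4.35 in ore15-1D, -1.50 and -2.26 in ore15-2 and -2.82 and -2.84 in Col. It fell by 1.99 ± 0.40 in ore15-1D (adjusted p 0.0201), a change between -2.46 and -0.72 over the alternative settings.

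A coumaroyltransferase of anthocyanins, here called A3CouAT1 (AT1G03940), was at -6.27 and -5.86 in ore15-1D, -3.48 and -4.38 in ore15-2 and -5.44 and -5.66 in Col. Its ore15-2 value of 1.63 ± 0.33 did not pass (adjusted p 0.0795), and it was lower in ore15-1D than in ore15-2, at -2.14 ± 0.33 (adjusted p 0.0075). Its close copy AT1G03495 has no probe that does not also match AT1G03940. With normexp background correction and the 75th percentile, the ore15-2 values of UGT75C1, 5MAT and A3CouAT1 turned negative, to -0.17, -0.17 and -0.84.

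UGT78D2 and SCPL10 did not follow the order of UGT79B1. UGT78D2, a glucosyltransferase of both flavonols and anthocyanidins, stood at 0.92 and 0.71 in ore15-1D, at 0.94 and 1.05 in ore15-2 and at 0.32 and 0.34 in Col. Both mutants lay above Col: it rose by 0.48 ± 0.11 in ore15-1D (adjusted p 0.025) and by 0.66 ± 0.11 in ore15-2 (adjusted p 0.0486). SCPL10, the acyltransferase that adds sinapate to anthocyanins, was at 0.98 and 0.91 in ore15-1D, 1.01 and 1.38 in ore15-2 and 0.31 and 0.46 in Col, and rose by 0.56 ± 0.15 in ore15-1D (adjusted p 0.0397). UGT84A2, which makes the sinapoylglucose that SCPL10 uses, stood at 1.28 and 1.31 in ore15-1D, 1.90 and 1.86 in ore15-2 and 1.77 and 1.70 in Col. It fell by 0.44 ± 0.08 in ore15-1D (adjusted p 0.0144), opposite in sign to UGT78D2 and SCPL10, and its genotypes had the order of UGT79B1.

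Of the 5 tested regulators of the late genes, 3 fell in ore15-1D and 1 fell in ore15-2. That was 60% changed in ore15-1D and 20% in ore15-2, against 40.7% and 3.73% of all genes tested. PAP1 (AT1G56650, probe on chromosome 1, 21233742 to 21233801), the MYB that switches the late genes on, stood at -2.77 and -2.25 in ore15-1D, at -0.02 and -0.26 in ore15-2 and at -0.28 and -0.57 in Col. It fell by 2.08 ± 0.22 in ore15-1D, 4.24-fold lower (adjusted p 0.00662). In ore15-2 the PAP1 value was 0.29 ± 0.22 (adjusted p 0.475), while DFR, a known target, rose by 2.96. TT8 (AT4G09820), the bHLH partner, was at -6.82 and -6.12 in ore15-1D, where 1 of 2 arrays was well above background, at -3.37 and -3.69 in ore15-2 and at -4.90 and -4.83 in Col. TT8 fell by 1.61 ± 0.26 in ore15-1D (adjusted p 0.0129), a value of -1.57 with slide as a fixed block (adjusted p 0.0551). Over the alternative settings the TT8 value in ore15-1D lay between -1.96 and -0.15. Its 1.33 ± 0.26 in ore15-2 did not pass (adjusted p 0.0729). The ore15-2 value of TT8 turned to -0.88 with normexp background correction and the 75th percentile (adjusted p 0.64).

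MYBL2 (AT1G71030), the MYB that represses the complex, differed from every other member in falling in both mutants. Its levels were 2.47 and 2.46 in ore15-1D, 2.60 and 2.66 in ore15-2 and 3.36 and 3.36 in Col, the arrays of each genotype within 0.1 of each other. It fell by 0.90 ± 0.07 in ore15-1D, 1.86-fold (adjusted p 0.00501), and by 0.73 ± 0.07 in ore15-2, 1.66-fold (adjusted p 0.0226). EGL3, another bHLH partner, ran opposite to TT8, at -3.25 and -3.03 in ore15-1D, -3.78 and -4.65 in ore15-2 and -3.85 and -4.03 in Col. It was higher in ore15-1D than in ore15-2 by 1.08 ± 0.30 (adjusted p 0.0346), and did not pass against Col. TTG1, the WD40 scaffold, had changes of -0.11 ± 0.08 in ore15-1D and 0.09 ± 0.08 in ore15-2 (adjusted p 0.332 and 0.576). PAP2, a close relative of PAP1, was well above background on 1 of 6 arrays and was not tested.

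The flavonol MYB factors moved opposite to PAP1 in ore15-1D. MYB12 stood at -3.98 and -4.02 in ore15-1D, at -4.63 and -4.60 in ore15-2 and at -4.54 and -4.90 in Col, and rose by 0.72 ± 0.14 in ore15-1D (adjusted p 0.0183). MYB111 was at -2.09 and -2.24 in ore15-1D, -2.52 and -2.85 in ore15-2 and -2.84 and -3.00 in Col, and rose by 0.75 ± 0.15 in ore15-1D (adjusted p 0.0192). For both, ore15-2 overlapped Col, and the ore15-1D arrays stood above all others. The sign of both turned with normexp background correction and the 75th percentile, to -0.999 for MYB12 (adjusted p 0.583) and -0.36 for MYB111 (adjusted p 0.784). CHS, CHI, F3H and FLS1, known targets of these factors, had changes of 0.43, 0.23, 0.18 and 0.27 in ore15-1D, and none passed. MYB11 was well above background on 1 of 6 arrays and was not tested.

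The 2 ore15-1D arrays also differed from each other in the late genes. Replicate 2 was the higher one for DFR, LDOX, TT19, UGT79B1, UGT75C1, 5MAT, A3CouAT1, PAP1 and TT8, and the lower one for FLS1, UGT78D2 and SCPL10. Without ore15-1D replicate 1, 5 members passed in ore15-1D against Col, and without replicate 2, 9 passed, compared with 16 on all arrays. Col replicates stood within 0.1 of each other for LDOX, UGT79B1, UGT75C1, 5MAT, TT8 and F3'H.

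**Figure D3:**
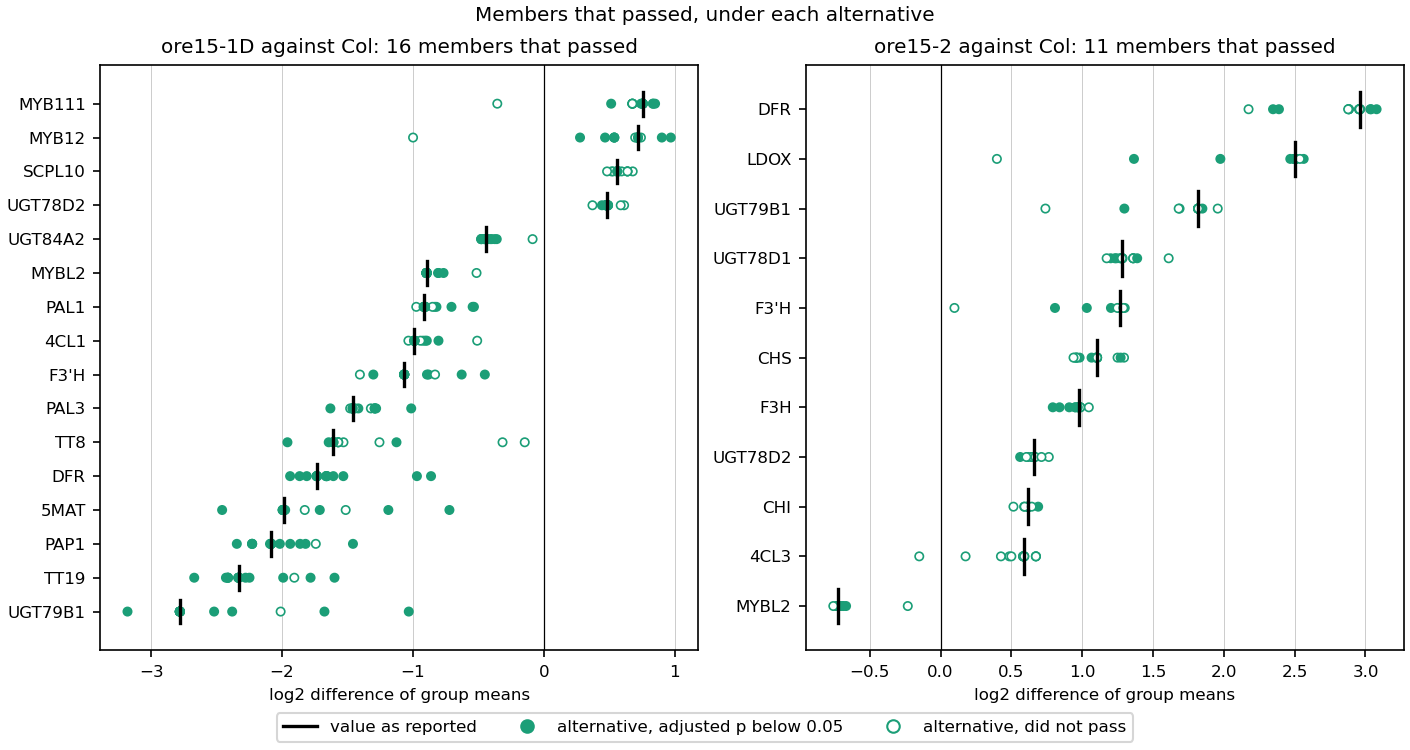
Change of the members that passed in ore15-1D against Col (16 members) and in ore15-2 against Col (11 members) under each processing alternative, as a log2 difference of group means. Black strokes are the values given in the text, filled points are alternatives that passed and open points alternatives that did not. DFR in ore15-2 lies between 2.17 and 3.08 throughout, while LDOX reaches down to 0.40 and F3'H to 0.098.

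Other genes of the same metabolism were listed by branch, 81 in all, of which 73 could be tested. In ore15-1D 7 of them rose and 19 fell, with a median of -0.17. That was 35.6% changed, against 40.7% of all genes tested. In ore15-2 1 rose and 1 fell, a share of 2.74% against 3.73% of all genes. The monolignol branch, which leads to lignin, had 6 falls and no rise among 13 genes in ore15-1D, with all 13 changes negative and a median of -0.58. That was 46.2% changed, all lower, against 40.7% changed and 22.1% lower over all genes tested. Among them 4CL5, a further coumarate ligase, was at -4.27 and -4.50 in ore15-1D and at -2.76 and -2.59 in Col and fell by 1.71 ± 0.27 (adjusted p 0.0124). COMT1, which methylates lignin precursors, stood at 3.60 and 3.50 in ore15-1D and at 4.62 and 4.77 in Col and fell by 1.15 ± 0.14 (adjusted p 0.00838). The laccases LAC4 and LAC17, which polymerise lignin, fell by 0.97 ± 0.13 and 0.84 ± 0.14 (adjusted p 0.00861 and 0.0143). No gene of this branch passed in ore15-2.

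In the sinapate ester branch 3 of 7 genes fell in ore15-1D and none rose, or 42.9% changed, against 40.7% of all genes tested. REF1, the aldehyde dehydrogenase that makes sinapic acid, stood at 0.40 and 0.15 in ore15-1D, against 1.93 and 2.098 in Col, and fell by 1.74 ± 0.12 (adjusted p 0.004). SCPL8, which makes sinapoylmalate, fell by 0.47 ± 0.12 (adjusted p 0.0373). SCPL13, a gene of the same family, fell in both mutants, by 1.09 ± 0.09 in ore15-1D (adjusted p 0.0052) and by 0.80 ± 0.09 in ore15-2 (adjusted p 0.0259). Upstream, in shikimate and phenylalanine synthesis, 3 of 20 genes changed in ore15-1D, or 15% against 40.7% of all genes tested, and none in ore15-2. They were ADT5, an arogenate dehydratase, at -0.66 ± 0.12 (adjusted p 0.0172), and the chorismate mutases CM1, at -0.30 ± 0.08 (adjusted p 0.0401), and CM3, at 0.31 ± 0.09 (adjusted p 0.044). Of 9 tested genes for other flavonol and proanthocyanidin steps, UGT89C1, a flavonol rhamnosyltransferase, passed in ore15-1D (11.1%, against 40.7% of all genes tested). It was at 2.40 and 2.37 in ore15-1D, against 1.43 and 1.31 in Col, a rise of 1.02 ± 0.11 (adjusted p 0.00704).

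Of 24 tested other regulators of the pathway, 5 rose (20.8%) and 8 fell (33.3%) in ore15-1D, against 18.6% and 22.1% of all genes tested. GL3, a bHLH partner of PAP1 named here after its values were seen, stood at -5.42 and -4.996 in ore15-1D, at -6.13 and -6.49 in ore15-2 and at -6.51 and -6.77 in Col, where it was not well above background. Only in ore15-1D were both arrays well above background, so GL3 entered the test through the genotype where it is high. This favoured a call in advance. GL3 rose in ore15-1D, to at least 2.25-fold the level in Col (adjusted p 0.0108), opposite in sign to PAP1 and TT8. That bound is the ore15-1D mean over the Col mean, with each Col array taken at the higher of the probe's own signal and the array's lowest signal well above background. LBD39, known as a repressor of anthocyanin genes, stood at -3.10 and -3.50 in ore15-1D and at -0.36 and 1.16 in Col, and fell by 3.70 ± 0.51 (adjusted p 0.0098). Its relative LBD38 fell by 1.87 ± 0.32 (adjusted p 0.0144). Col replicate 2 was well above Col replicate 1 for both. KFB20, an F-box protein that targets PAL enzymes for breakdown, was at -0.90 and -0.59 in ore15-1D and at 1.37 and 2.26 in Col, and fell by 2.56 ± 0.32 (adjusted p 0.00844). SPL9, which interferes with the PAP1 complex, stood at 1.04 and 1.00 in ore15-1D and at -0.34 and -0.73 in Col, and rose by 1.55 ± 0.15 (adjusted p 0.00606). HYH, a bZIP factor of light signalling, was the single regulator of this list to pass in ore15-2. It was at -0.55 and -0.40 in ore15-2, against -1.68 and -1.69 in Col, a rise of 1.22 ± 0.10 (adjusted p 0.0183). Its partner HY5, named here after its values were seen, rose in ore15-1D by 1.20 ± 0.12 (adjusted p 0.00614), and its ore15-2 value was 0.50 ± 0.12 (adjusted p 0.105).

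**Figure D4:**
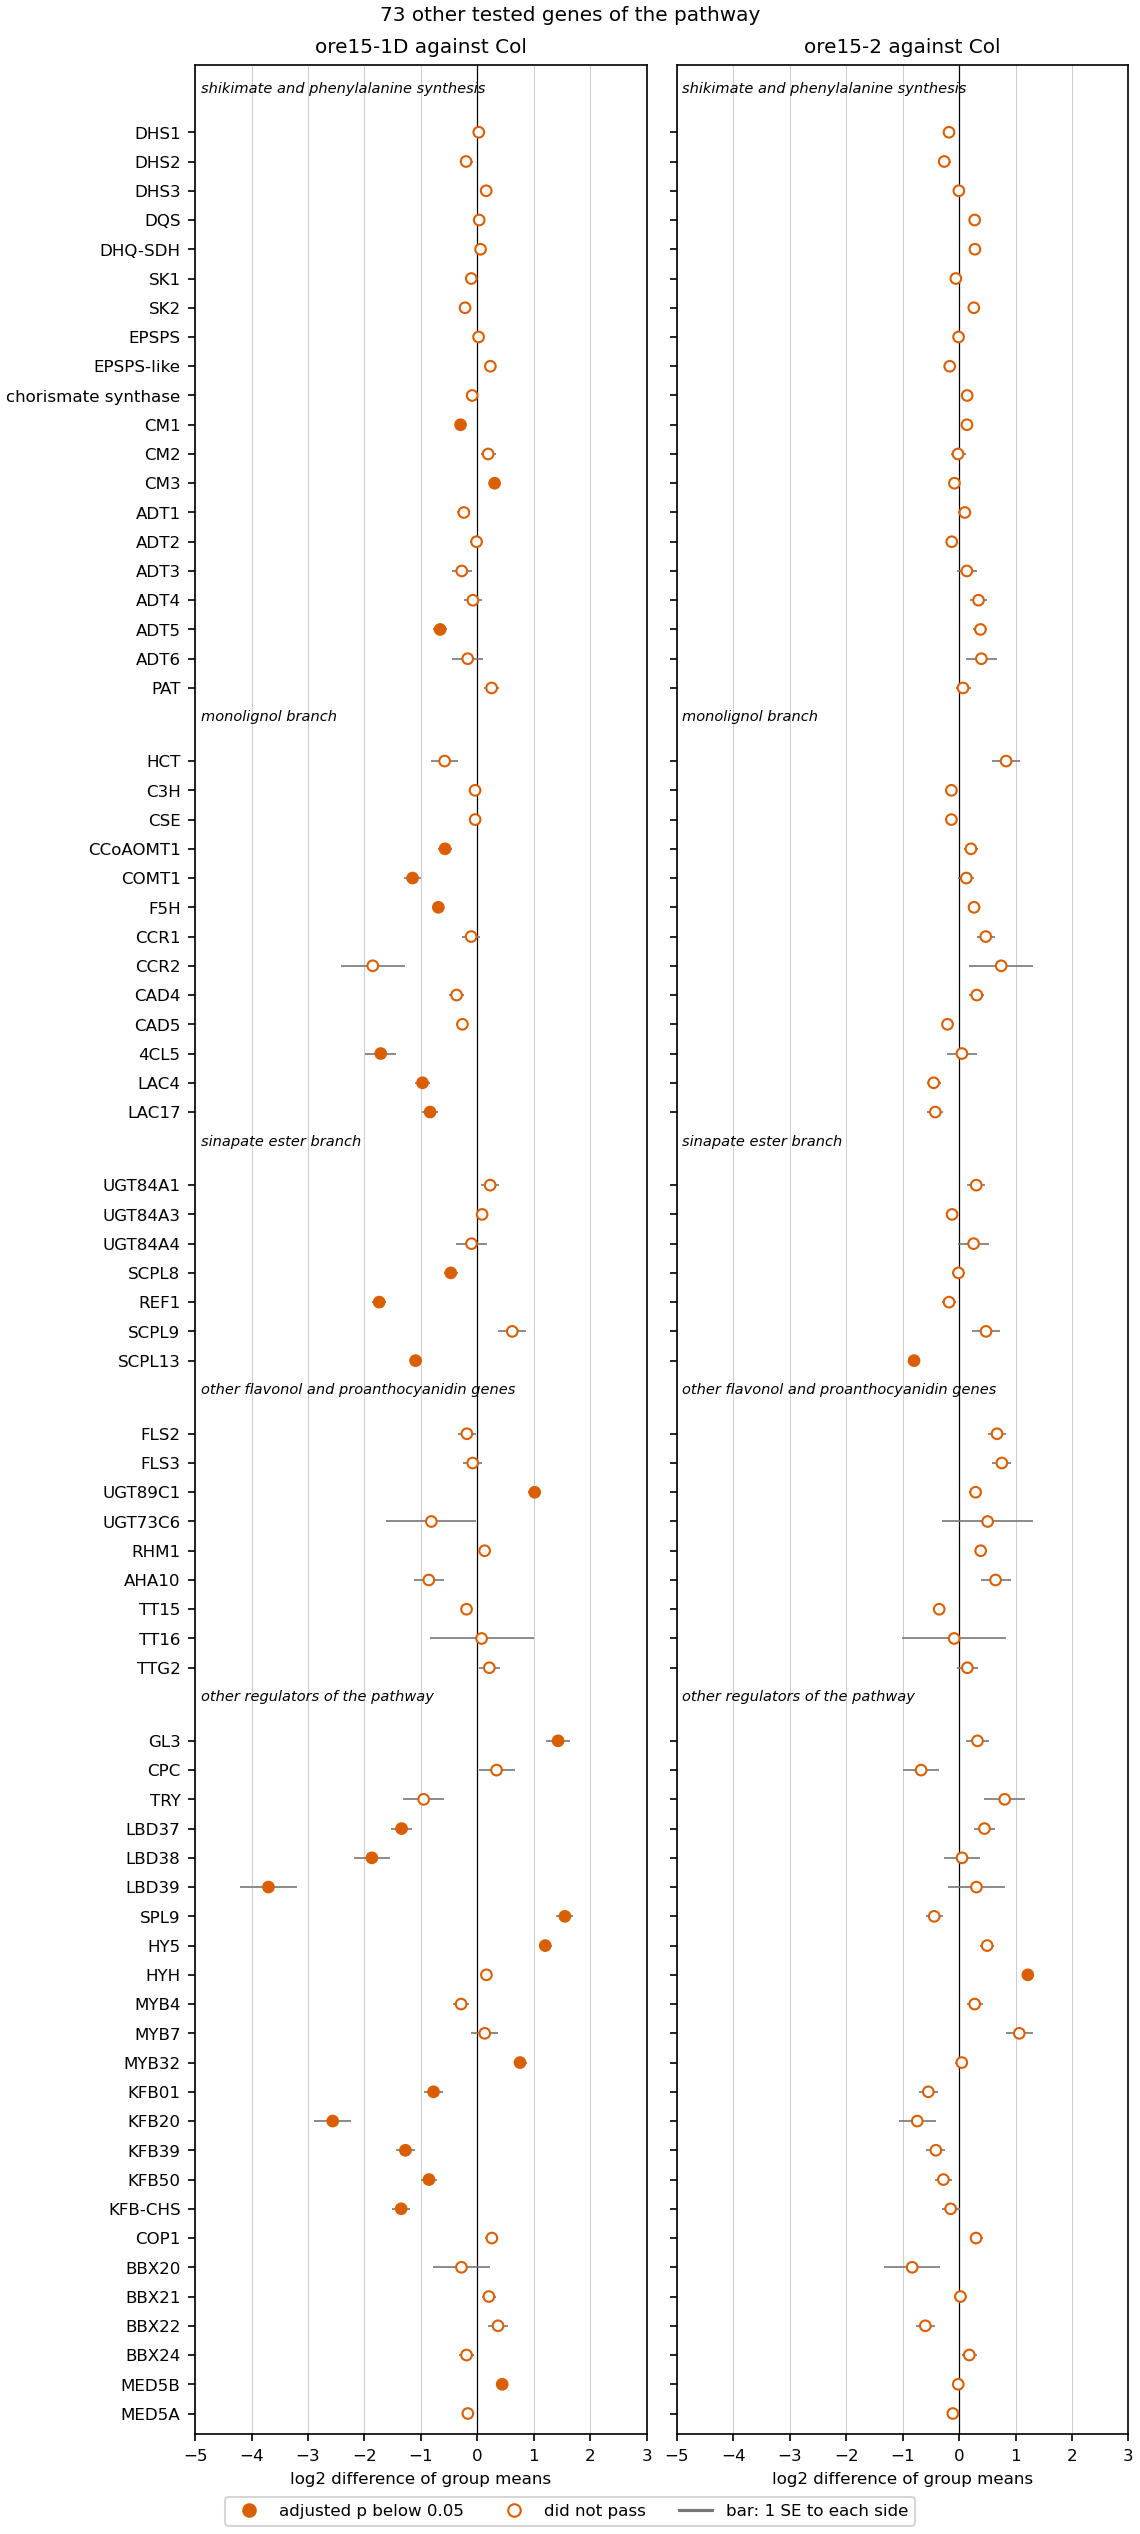
Change of 73 other tested genes of the pathway, by branch, in ore15-1D against Col and ore15-2 against Col. The horizontal axis is the log2 difference of the group means, bars span 1 SE to each side, and filled points passed at adjusted p below 0.05. All 13 monolignol genes lie below 0 in ore15-1D, and LBD39 lies furthest to the left at -3.70.

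Between the mutants, 30 of these 73 genes were lower and 10 higher in ore15-1D than in ore15-2, or 54.8% of them, against 55.7% of all genes tested. AHA10 was among the lower ones, by at least 2.12-fold. It was well above background on the ore15-2 arrays alone, so it entered the test through the genotype where it is high. The monolignol genes CCR2, at -2.60 ± 0.57 (adjusted p 0.0177), and HCT, at -1.41 ± 0.25 (adjusted p 0.00966), passed in this comparison, as did ADT5 at -1.04 ± 0.12 (adjusted p 0.00442). FLS2 and FLS3, relatives of FLS1, were lower in ore15-1D than in ore15-2, at -0.86 ± 0.16 and -0.84 ± 0.17 (adjusted p 0.0125 and 0.0138).

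Leaf mesophyll markers moved with genotype beside these genes. All 6 mesophyll genes fell in ore15-1D, with a median of -0.77 and a summed level of 816 to 894 times the 75th percentile, and none passed in ore15-2, at 1598 to 1786, against 1377 to 1520 in Col. Epidermis markers, 3 genes, did not pass against Col in either mutant, with sums of 63.7 to 64.3 in ore15-1D, 33.2 to 45.8 in ore15-2 and 46.9 to 51.6 in Col. Between the mutants 2 of the 3 were higher in ore15-1D, PDF1 by 0.95 ± 0.24 (adjusted p 0.0275) and PDF2 by 0.35 ± 0.08 (adjusted p 0.0192). Of the 3 trichome genes, GL2 rose by 0.53 ± 0.15 (adjusted p 0.0478) and ETC2 fell by 1.20 ± 0.11 (adjusted p 0.00556) in ore15-1D. GL1 did not pass against Col, at 1.70 ± 0.99 in ore15-1D (adjusted p 0.217) and -2.38 ± 0.99 in ore15-2 (adjusted p 0.248). It was well above background on 1 of 2 ore15-2 arrays. Between the mutants GL2 and GL1 were higher and ETC2 lower in ore15-1D, with GL1 at 4.09 ± 0.99 (adjusted p 0.0232). Trichome sums were 2.21 to 2.30 in ore15-1D, 1.20 to 1.51 in ore15-2 and 1.62 to 1.88 in Col. All 3 root markers fell in ore15-1D, at sums of 0.216 to 0.251 in ore15-1D, 0.371 to 0.498 in ore15-2 and 0.474 to 0.489 in Col. The shoot meristem genes WUS, CLV3 and STM were not well above background on any array, and neither of the 2 tested seed genes passed against Col. Of 5 flower genes 2 were tested: SEP3 rose by 1.01 ± 0.23 in ore15-1D (adjusted p 0.0266) and fell by 1.69 ± 0.23 in ore15-2 (adjusted p 0.0348), and PI rose by 1.88 ± 0.20 in ore15-2 (adjusted p 0.0232). The part of these shifts in the results above was not tested. In whole leaves, fewer cells of a type and less RNA per cell cannot be told apart.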

How the data were processed

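Total RNA was labelled with Cy3 and hybridised to 6 single-colour Agilent arrays, and the labels gave each array's group and replicate number. The scanner files hold spot intensity from Agilent Feature Extraction 11.5, as the submitters' processing notes state. Per the file headers, the processed signal has the background already subtracted. The authors also deposited a table of log2 values, with scaling and centring unstated. Its columns ranked spots exactly as their own array's median signal did (Spearman 1) and shared a median near 7.29 and a maximum of 18.6, and it served as an alternative. The notes deposited with the arrays say that BLASTN paired probes with TAIR10 loci.

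From these files, log2 of the processed signal minus the 75th percentile of each array was computed, without the 1417 control spots or any outlier-marked spot. Of 43603 probes, 37257 matched 1 locus, 900 several and 5446 none. The brightest probe on average stood for a locus, and 8 members had several. Loci were tested if, in 1 genotype or more, both arrays had their probe well above background. This gave 20278 loci, of which 20212 had a value on every array. Of the 37 members, 36 had a probe of their own and 32 were tested, 31 of these well above background on all 6 arrays. A gene that enters the test through a single bright genotype is favoured in advance to differ. GL3 entered in this way through ore15-1D, and AHA10 and the seed marker CRU3 through ore15-2. TT8 was the tested member not well above background on every array, and it entered through both ore15-2 and Col.

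Tests used limma 3.58.1 (lmFit, eBayes) in R 4.3.3 on all 6 arrays, with 3 residual and 1.80 prior degrees of freedom, two-sided, Benjamini-Hochberg over all loci tested, threshold 0.05. The fit was also tested on simulated data. Precision is limited by the number of arrays. Between replicates the correlation was 0.995 in ore15-1D, 0.989 in ore15-2 and 0.987 in Col. A log2 signal value is not a transcript number, so levels are not compared between genes. Members and lists were chosen with earlier results of these data known. Every member may be named, and of each other list up to 4 genes per comparison with the largest change that passed. HY5, GL3 and the markers given by name lie outside this rule.

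Other settings tried were quantile scaling, normexp (offset 50) under either scaling, looser and stricter background filters, averaging a locus's probes, slide or replicate number as a block, each slide by itself, the table the authors deposited, a log2 change of 1 as a minimum, and dropping arrays in turn. Normexp used the median spot and background signals. A planned description of promoter motifs was not run, and no sequence is shown.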

Additional observations from a re-analysis of the deposited data

Results flagged for a closer look

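A probe that matches both AT1G03495 and AT1G03940 (A_84_P20780), 2 anthocyanin coumaroyltransferase genes, was used in no comparison because its signal cannot be assigned to 1 of them. It stood at -6.26 and -5.73 in ore15-1D, at -2.62 and -3.41 in ore15-2 and at -4.92 and -5.23 in Col, and the ore15-2 mean was 2.06 above the Col mean on the log2 scale. It is listed here because it carries a signal above Col outside the tested data. The difference was not tested. A second probe shared by the same genes read -4.70 and -5.23 in ore15-1D, -3.16 and -3.05 in ore15-2 and -4.98 and -3.08 in Col, where the Col arrays spanned the ore15-2 arrays.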

How the results depend on the processing

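The sign was kept under every alternative by 14 of the 16 members that passed in ore15-1D against Col (17 alternatives, 16 for TT8), by 10 of 11 in ore15-2 against Col (17) and by 25 of 26 between the mutants (16, and 15 for TT8). The exceptions were MYB12 (-0.999) and MYB111 (-0.36) in ore15-1D with normexp and the 75th percentile, and 4CL3 with the mean of its probes (-0.15 in ore15-2, adjusted p 0.874, and 0.46 between the mutants, adjusted p 0.446), whose dimmer probe opposes. Counts moved more. With normexp and the 75th percentile 0 members rose or fell by limma in all 3 comparisons, as did 0 of all genes, while 5, 10 and 10 members and 2245, 726 and 2829 genes had an unadjusted p under 0.05. Under that setting the median of all genes was -0.25 in ore15-1D and -0.21 in ore15-2, against -0.01 and 0.01 in the fit reported above. Without the filter on dim probes it was -0.24 in ore15-1D and -0.26 between the mutants, against -0.01 and -0.02 in the fit reported above. The cause was not tested.

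In ore15-1D against Col, where 16 changed, 4 up and 12 down, slide as a fixed block left 9, with 1 up, and a minimum log2 change of 1 left 8, with 0 up. Leaving out an array gave 5 to 19 changed, 0 to 5 up and 5 to 14 down, with 5 without ore15-1D replicate 1 and 9 without ore15-1D replicate 2 or Col replicate 2. In ore15-2 against Col, where 11 changed, 10 up and 1 down, 0 passed in either direction with slide as a fixed block (21 at an unadjusted p under 0.05), within slide 2 alone (17) or without the filter (20). A minimum change of 1 left 6, all up, with 0 down. Leaving out an array gave 0 to 9 changed, 0 to 8 up and 0 to 1 down, with 4 without Col replicate 2 and 0 without ore15-2 replicate 2, Col replicate 1 or either ore15-1D array. Normexp with quantile normalization gave 16. Between the mutants, where 26 differed, 4 higher and 22 lower in ore15-1D, slide as a fixed block left 0 (17 at an unadjusted p under 0.05), and a minimum change of 1 left 15, 1 higher and 14 lower. Leaving out an array gave 17 to 25, 0 to 3 higher and 17 to 22 lower, with 17 and 0 higher without either ore15-1D array.

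Same-numbered arrays were not shown to be paired: their deviations from the group means correlated at -0.01, -0.09 and 0.13. With the replicate block 15 members passed in ore15-1D against Col (3 up, 12 down), 0 in ore15-2 against Col (0 up, 0 down, 20 at an unadjusted p under 0.05) and 25 between the mutants (4 higher, 21 lower). With slide as a random block 16, 10 and 25 passed in the 3 comparisons. Within slide 1, which holds 1 Col array whose spread is assumed to be that of ore15-1D, 15 members passed in ore15-1D against Col. Signal over background limits TT8, measured above it in ore15-1D on 1 of 2 arrays, and with 2 arrays a genotype smaller changes could pass unseen.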
